A study of Drosophila melanogaster with 4 samples.

Results

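The neurotransmitter receptors described here are 9 Drosophila melanogaster genes: 5-HT1A, 5-HT1B, 5-HT2A, 5-HT2B and 5-HT7 for serotonin, Dop1R1 and Dop2R for dopamine, Oamb for octopamine and mAChR-A for acetylcholine. They are 9 of 16785 genes, and 31 of 35327 transcripts, with FPKM values (reads scaled to transcript length and to library size). They were taken as receptors of neurons that should be silent in ovarian somatic cells (OSCs), and the group was selected on a measured value, the high level of 5-HT2A after Mi-2 knockdown (KD). Every siMi-2 value of these genes is therefore a description. Transcripts were added up per gene, with no minimum FPKM.

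All 9 receptors sit in the plasma membrane, cross it with several helices and signal through heterotrimeric G proteins. In flies, serotonin, dopamine and octopamine are made from amino acids by a short chain of enzymes and act on feeding, sleep, learning and arousal, while acetylcholine is the main excitatory transmitter of the central nervous system. Receptors of the 5-HT2 kind and mAChR-A act mainly through phospholipase C and calcium, 5-HT1A, 5-HT1B and Dop2R lower cyclic AMP, and 5-HT7 and Dop1R1 raise it. Oamb is also known from the fly reproductive tract, where it takes part in ovulation.

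OSCs are a cultured line of somatic follicle-type cells from the fly ovary that holds no germ cells. Poly(A) RNA was sequenced 4 days after siRNA against piwi (sipiwi), Mi-2 (siMi-2), Rpd3 (siRpd3) or, as the control, GFP (siGFP), which the sample labels name EGFP, in cells grown at 26 °C. Piwi is the nuclear protein that silences transposons with piRNAs, Mi-2 a nucleosome remodeler and Rpd3 a histone deacetylase, and the study compared their KDs. There was 1 library per condition, all from the same cell line, so that no difference given here has a replicate check and no test between conditions was possible.

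The libraries held between 32638850 and 38060154 mapped reads, recovered from the steps between FPKM values. The RNA of the targeted gene was lower for piwi (38.9 FPKM in sipiwi, against 73.5 in siGFP) and for Mi-2 (5.67 FPKM in siMi-2, against 34.4 in siGFP). Rpd3 RNA, listed under the symbol HDAC1, stood at 104 FPKM in the Rpd3 library, against 71.3 in siGFP, so it was not lower there and that sample is called the library labelled siRpd3 throughout. The study checked RNAi efficiency with other measurements, which were not analysed here. Every direction drawn from the library carries this limit. The follicle cell factor tj stood at 110 FPKM in siMi-2, 135 in the library labelled siRpd3 and 109 in sipiwi, against 64.0 in siGFP. The somatic piRNA factor fs(1)Yb stood at 51.2 FPKM in siMi-2, 38.8 in the library labelled siRpd3 and 70.2 in sipiwi, against 53.3 in siGFP. Among 7952 genes with a mean of at least 1 FPKM, the log2 ratio to siGFP had a median of 0.13 in siMi-2, 0.69 in the library labelled siRpd3 and 0.29 in sipiwi. It also moved with transcript length. Over the 1481 genes of 3000 to 6000 nt, the length of most of the receptor transcripts, the median was 0.23 in siMi-2, 1.56 in the library labelled siRpd3 and 0.54 in sipiwi.

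5-HT2A, the serotonin receptor that gave the group its interest, was the only one of the 9 genes above 1 FPKM in any library. It lies on chromosome arm 3R, 4612870 to 4633304 on the plus strand (dm6), and has 5 annotated transcripts of 5 to 8 exons. Its level was 0.199 FPKM in sipiwi (95% exact Poisson interval 0.109 to 0.334), 5.45 FPKM in siMi-2 (4.90 to 6.04), 1.35 FPKM in the library labelled siRpd3 (1.07 to 1.68) and 0.222 FPKM in siGFP (0.124 to 0.366). The siMi-2 library was thus the highest, the library labelled siRpd3 came next, and the sipiwi and siGFP intervals overlapped. These levels rested on 28 reads in sipiwi, 728 in siMi-2, 161 in the library labelled siRpd3 and 30 in siGFP. The reads of weakly covered transcripts mostly came in even numbers, 75.8% to 78.8% of transcripts with 1 to 20 reads, so that intervals count 2 reads as 1 read pair. They cover counting error only, since PCR copies are not independent molecules, and they compare libraries rather than conditions.

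On the log2(FPKM + 0.1) scale, where the added 0.1 makes the change of weakly expressed genes look smaller, 5-HT2A differed from siGFP by 4.11 in siMi-2, 2.17 in the library labelled siRpd3 and -0.11 in sipiwi. As reads per mapped read, the ratio to siGFP was 24.6 in siMi-2 (14.7 to 44.5), 6.03 in the library labelled siRpd3 (3.45 to 11.3) and 0.90 in sipiwi (exact 95% Clopper-Pearson interval 0.403 to 2.0). The intervals of siMi-2 and of the library labelled siRpd3 stand above 1, whereas that of sipiwi includes it. Among the knockdowns, siMi-2 was 4.08-fold above the library labelled siRpd3 (3.20 to 5.27) and 27.4-fold above sipiwi (16.1 to 50.6). By its ratio to siGFP, 5-HT2A ranked 128 of 12888 genes above 0 in any library in siMi-2, 1488 in the library labelled siRpd3 and 9737 in sipiwi. The 200 genes nearest to it in transcript length had median log2 ratios of 0.13 in siMi-2, 1.53 in the library labelled siRpd3 and 0.58 in sipiwi. Relative to them 5-HT2A stood at 3.98 in siMi-2, whereas the 0.64 of the library labelled siRpd3 no longer passed 2-fold. With 1 FPKM added in place of 0.1, its log2 ratio was 2.40 in siMi-2, past 2-fold, but 0.94 in the library labelled siRpd3.

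**Figure D1:**
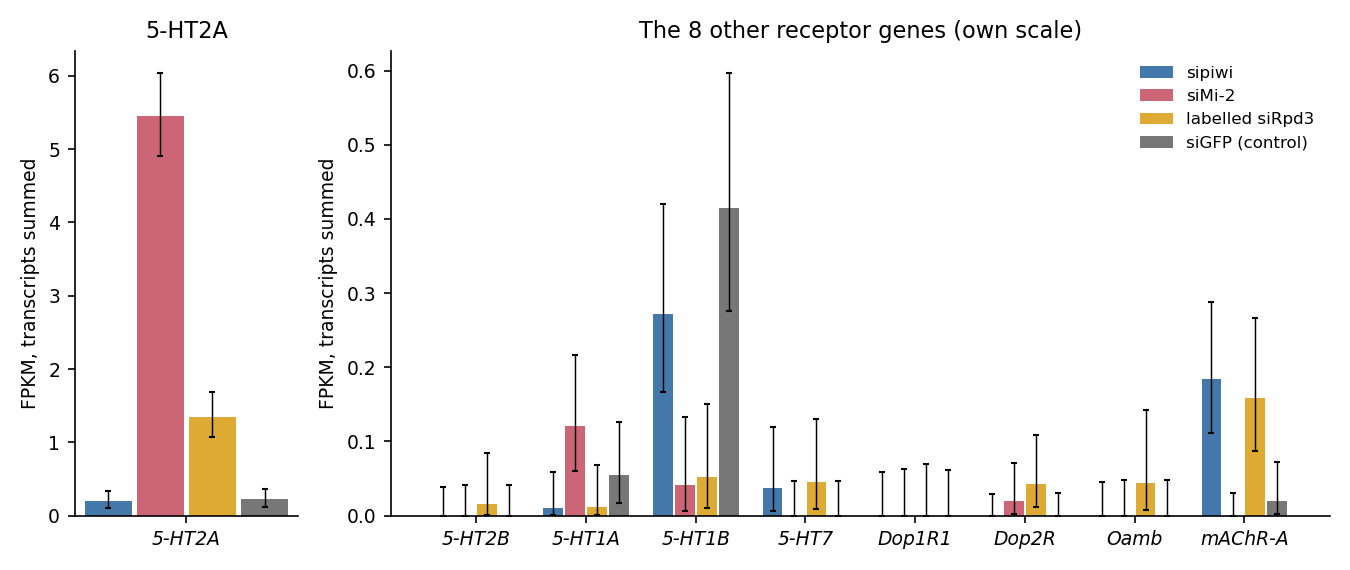
Levels of the 9 receptor genes in FPKM (vertical axes, linear, from 0) in sipiwi, siMi-2, the library labelled siRpd3 and siGFP, 1 library each, with 5-HT2A on its own axis at left and the other 8 genes at right. Bars are FPKM and error bars exact 95% Poisson intervals of the read pairs, drawn up to the FPKM of 3 read pairs for genes at 0. 5-HT2A reaches 5.45 FPKM in siMi-2, while no other receptor exceeds the 0.414 FPKM of 5-HT1B in siGFP.

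The 5-HT2A signal was spread over its transcripts. In siMi-2 each of the 5 transcripts held between 90 and 189 reads, against 4 to 8 in siGFP. The library labelled siRpd3 had 27 to 40 reads per transcript, and sipiwi 1 to 16. Every one of the 5 transcripts was therefore highest in siMi-2, with the library labelled siRpd3 next. How the reads were divided among transcripts is loose, because a read that fits several isoforms equally well is placed on one of them by the mapper.

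**Figure D2:**
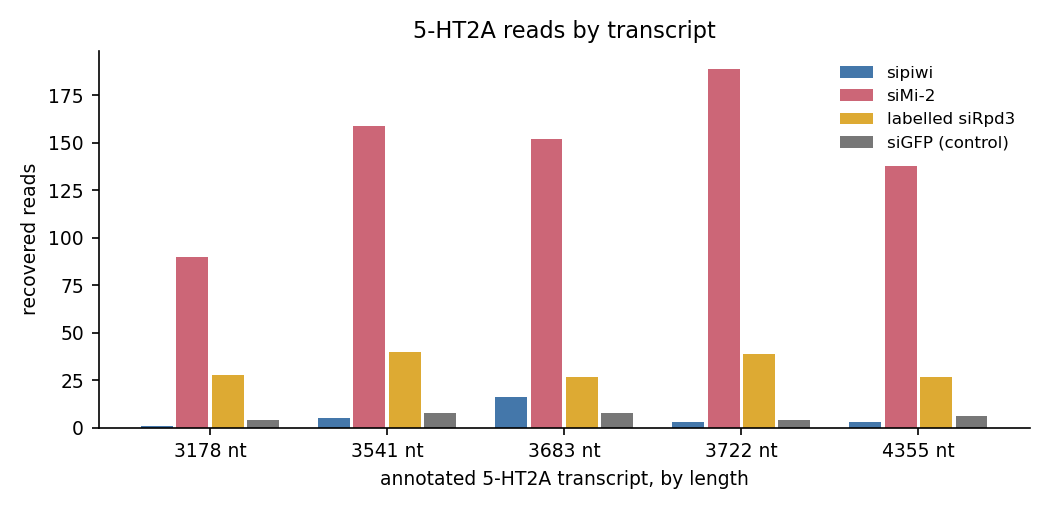
Recovered reads (vertical axis) of the 5 annotated 5-HT2A transcripts, ordered by transcript length in nt, in sipiwi, siMi-2, the library labelled siRpd3 and siGFP. The siMi-2 library has 90 to 189 reads on each transcript, above the 27 to 40 of the library labelled siRpd3, and siGFP has 4 to 8.

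Of the 4 genes around 5-HT2A, 1 passed 2-fold in siMi-2. CG9775, a coding gene that lies 4706 nt beyond it on the other strand, had log2 ratios of -0.09 in siMi-2, 0.14 in the library labelled siRpd3 and 0.55 in sipiwi, from 7281 to 11986 reads. The noncoding gene lncRNA:CR44317, 13121 nt before it, stood at 138 reads in siMi-2, 55 in the library labelled siRpd3 and 25 in sipiwi, against 60 in siGFP. Its log2 ratio was -1.15 in sipiwi and 1.25 in siMi-2, both past 2-fold. The other neighbours, lncRNA:CR45558 and lncRNA:CR45673, had at most 2 reads in any library. Around 5-HT2B, 5-HT7, Dop1R1, Dop2R and Oamb, 18 of the genes next on each side were measured, overlapping genes left out. Of these, 2 were higher in siMi-2 (CG9649 and CG31326, beside Dop1R1), 3 in the library labelled siRpd3 (the same pair and Cenp-C, beside 5-HT2B) and 1 in sipiwi (Nep3, beside Dop2R), with none lower. Of all genes above 0 in any library, 17.9% were higher in siMi-2, 37.1% in the library labelled siRpd3 and 11.4% in sipiwi. The 18 include genes with 0 reads throughout, among them Or85e, Ctr1C and fd19B, which that background leaves out. No difference from it is read for these neighbours. CG9649 had 6 reads in sipiwi, 8 in siMi-2, 20 in the library labelled siRpd3 and 0 in siGFP. Among the genes that overlap these receptors, CG31008, within 5-HT7, passed 2-fold in siMi-2 on 2 reads, against 0 in siGFP.

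Among all genes, 5 were most like 5-HT2A by the distance between their 3 log2 ratios and its own, out of 9454 genes with at least 20 reads in 1 library. CG31176, at a distance of 0.23, had 0 reads in sipiwi, 142 in siMi-2, 24 in the library labelled siRpd3 and 0 in siGFP. The gene hng3, the most abundant of the 5, had 3.12 FPKM in sipiwi, 70.5 in siMi-2, 16.3 in the library labelled siRpd3 and 3.25 in siGFP. CG31121, asRNA:CR43891 and Gnmt, the glycine N-methyltransferase, completed the list at distances of 0.40 to 0.45. All 5 passed 2-fold upward in siMi-2 as well as in the library labelled siRpd3 and passed 2-fold in neither direction in sipiwi, which is what the choice by likeness sets.

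None of the other serotonin receptors passed 2-fold upward in any library on the FPKM + 0.1 scale. With 0.01 FPKM added in its place, 5-HT1A reached a log2 ratio of 1.03 in siMi-2, and 5-HT7 reached 2.25 in sipiwi on 5 reads and 2.45 in the library labelled siRpd3 on 6 reads, against 0 reads in siGFP. 5-HT1B, which lowers cyclic AMP and is encoded on 2R (19022325 to 19032642, minus strand), was the most abundant receptor of the group in siGFP. Its level was 0.272 FPKM in sipiwi (0.166 to 0.421), 0.0416 in siMi-2 (0.00692 to 0.133), 0.0517 in the library labelled siRpd3 (0.0107 to 0.151) and 0.414 in siGFP (0.276 to 0.597). Its reads numbered 40 in sipiwi, 5 in siMi-2, 6 in the library labelled siRpd3 and 57 in siGFP. It was thus lower in both libraries in which 5-HT2A was higher, and its intervals in sipiwi and siGFP overlapped. The log2(FPKM + 0.1) ratio was -1.86 in siMi-2, -1.76 in the library labelled siRpd3 and -0.47 in sipiwi. As reads per mapped read, 5-HT1B stood at 0.0891 of siGFP in siMi-2 (0.0141 to 0.314), with 0.118 in the library labelled siRpd3 (0.0231 to 0.383), both on at most 3 read pairs. With 1 FPKM added, neither log2 ratio passed the threshold, at -0.44 in siMi-2 with -0.43 in the library labelled siRpd3.

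5-HT1A, the neighbour of 5-HT1B at a distance of 34513 nt on 2R (19067155 to 19121958, plus strand), is likewise an inhibitor of cyclic AMP synthesis. It had 2 reads in sipiwi, 22 in siMi-2, 2 in the library labelled siRpd3 and 10 in siGFP. Its level was 0.0105 FPKM in sipiwi, 0.121 in siMi-2, 0.0122 in the library labelled siRpd3 and 0.0543 in siGFP. The siMi-2 library was again the highest, but its ratio to siGFP of 2.23 in reads per mapped read has an interval of 0.716 to 8.20, which includes 1, and a log2(FPKM + 0.1) of 0.52. Against the library labelled siRpd3 the same siMi-2 reads gave a ratio of 9.93 (1.44 to 428), an interval too wide to size the difference.

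5-HT7, a receptor that raises cyclic AMP (3R, 30968236 to 31016875, minus strand), had 5 reads in sipiwi, 0 in siMi-2, 6 in the library labelled siRpd3 and 0 in siGFP. 5-HT2B, the close relative of 5-HT2A on the same arm (3R, 8578205 to 8629996, plus strand), had 2 reads in the library labelled siRpd3 and 0 in sipiwi, siMi-2 and siGFP. A count of 0 allows at most 3 read pairs, which is 0.0414 FPKM for 5-HT2B in siMi-2, against the 5.45 FPKM of 5-HT2A there. The level of 5-HT2A was thus far above anything that the depth allows for 5-HT2B.

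The dopamine and octopamine receptors were near or at 0. Dop1R1, the receptor that raises cyclic AMP in the fly learning centre (3R, 14165379 to 14214810, minus strand), had 0 reads in every library, which allows 0.0592 FPKM in sipiwi, 0.0624 in siMi-2, 0.0691 in the library labelled siRpd3 and 0.0614 in siGFP. Dop2R, the receptor of the opposite effect (X, 20004680 to 20062706, minus strand), had 0 reads in sipiwi, 4 in siMi-2, 8 in the library labelled siRpd3 and 0 in siGFP. Oamb (3R, 20689018 to 20714577, minus strand) had 5 reads in the library labelled siRpd3 and 0 in sipiwi, siMi-2 and siGFP. The 8 reads of Dop2R make 0.0427 FPKM (0.0116 to 0.109), an interval that overlaps the 0.0299 FPKM that its count of 0 allows in siGFP. No difference of these 3 genes was detectable at this depth.

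mAChR-A, the muscarinic acetylcholine receptor (2R, 24378630 to 24390294, minus strand), had a pattern of its own. It was at 0.185 FPKM in sipiwi (0.111 to 0.289), 0 in siMi-2 (up to 0.0306), 0.159 in the library labelled siRpd3 (0.0868 to 0.266) and 0.0202 in siGFP (0.00245 to 0.0729). Its reads numbered 38 in sipiwi, 0 in siMi-2, 28 in the library labelled siRpd3 and 4 in siGFP. It is thus the receptor with most reads in sipiwi relative to siGFP, and the interval of siMi-2 lies below those of sipiwi and of the library labelled siRpd3. The ratio to siGFP in reads per mapped read was 9.16 in sipiwi (2.21 to 81.1), with 7.87 in the library labelled siRpd3 (1.81 to 71.4), both against 2 read pairs. On the log2(FPKM + 0.1) scale the difference was 1.24 in sipiwi and 1.11 in the library labelled siRpd3, and after scaling every library by its median gene 1.06 in sipiwi and 0.72 in the library labelled siRpd3. Relative to the 200 genes nearest in length they became 0.55 in sipiwi, short of 2-fold, and -0.71 in the library labelled siRpd3, where the direction was the opposite. An overlapping gene on the other strand, CG13578, had 6 to 8 reads in each library, and whether the libraries kept strand is not given in the sources used here. Of the genes next to mAChR-A, Slik, 1835 nt away, had log2 ratios of -0.15 in siMi-2, 1.99 in the library labelled siRpd3 and 0.82 in sipiwi, and bs had 0.17 in siMi-2, 1.25 in the library labelled siRpd3 and 0.25 in sipiwi. Both were thus past 2-fold in the library labelled siRpd3, where mAChR-A was called higher. So were 37.1% of all genes above 0 in any library. The part of Slik and bs in the mAChR-A values was not tested.

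Counted over the 9 receptors, 1 was higher than siGFP in siMi-2 (5-HT2A), 2 in the library labelled siRpd3 (5-HT2A and mAChR-A) and 1 in sipiwi (mAChR-A), at more than 2-fold on FPKM + 0.1. Lower at less than 0.5-fold were none in sipiwi, and 5-HT1B in siMi-2 as well as in the library labelled siRpd3. Of the 12888 genes above 0 in any library, 11.4% were higher and 3.83% lower in sipiwi, 17.9% higher and 4.25% lower in siMi-2, and 37.1% higher and 6.68% lower in the library labelled siRpd3. Of the 5573 of them below 1 FPKM in siGFP, 14.4% were higher and 5.33% lower in sipiwi, 27.0% higher and 4.63% lower in siMi-2, and 37.2% higher and 4.67% lower in the library labelled siRpd3. On the same basis, without Dop1R1, 8 receptors were above 0 in any library. The higher ones made 12.5% of them in sipiwi, between these backgrounds, and 25.0% in the library labelled siRpd3, below both. The lower count in the library labelled siRpd3 is 1 gene, and nothing is read from the siMi-2 counts, which the choice of the group used. The median log2 ratio of the 9 genes was 0.00 in siMi-2, 0.51 in the library labelled siRpd3 and 0.00 in sipiwi, while over the 12888 genes it was 0.12 in siMi-2, 0.58 in the library labelled siRpd3 and 0.19 in sipiwi.

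**Figure D3:**
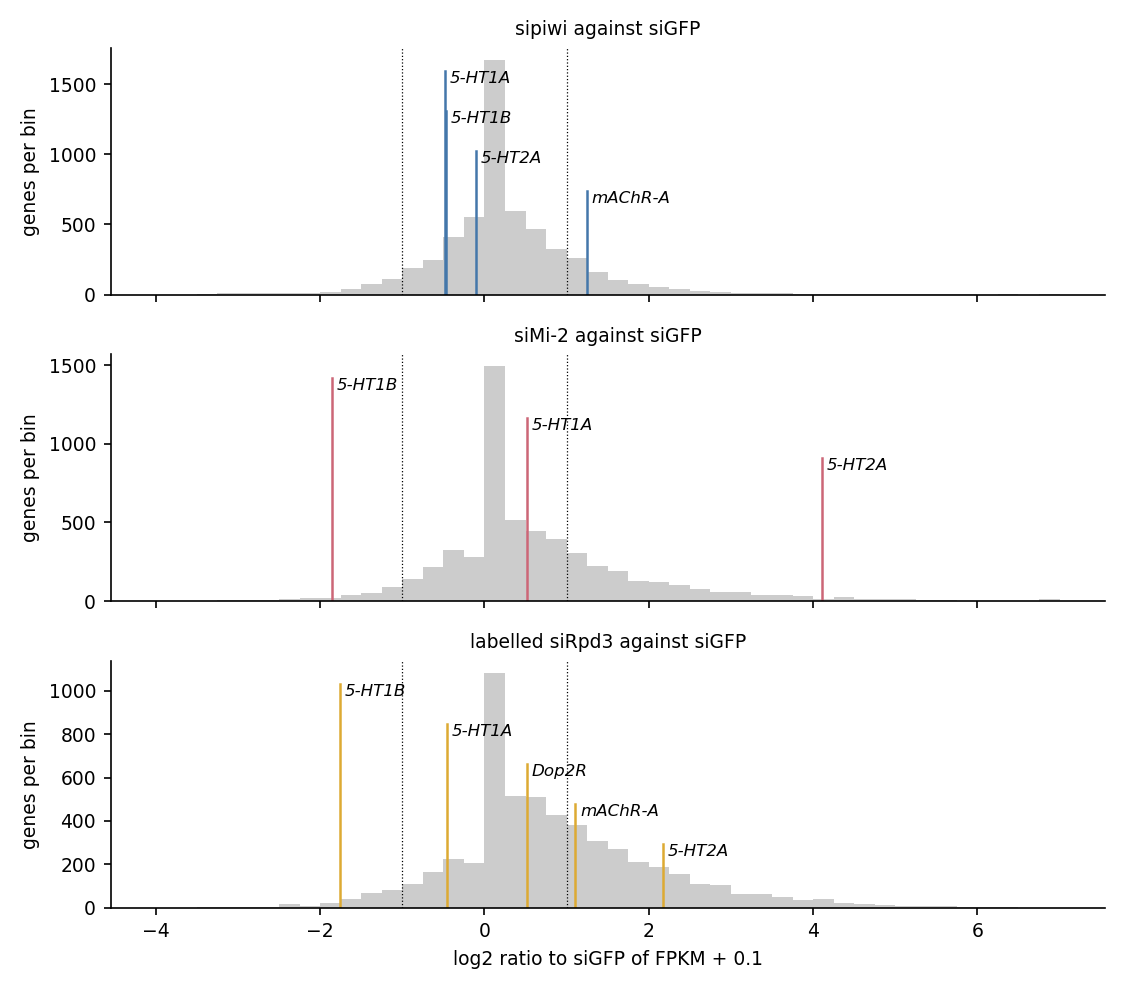
Log2 ratio to siGFP on FPKM + 0.1 (horizontal axes) in sipiwi, siMi-2 and the library labelled siRpd3, with the number of genes per bin of 0.25 (vertical axes) for the 5573 genes below 1 FPKM in siGFP in grey. Vertical lines mark the receptor genes with more than 6 reads in either library, dotted lines 2-fold, and values beyond the axis are drawn at its ends. 5-HT2A stands at 4.11 in siMi-2, with 2.17 in the library labelled siRpd3, and mAChR-A at 1.24 in sipiwi.

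Summed over the 9 receptors, 5-HT2A carried most of the reads in the libraries where it was high. The sum was 113 reads in sipiwi, 759 in siMi-2, 218 in the library labelled siRpd3 and 101 in siGFP, and 5-HT2A made 24.8% of it in sipiwi, 95.9% in siMi-2, 73.9% in the library labelled siRpd3 and 29.7% in siGFP. Without 5-HT2A, the others held 85 reads in sipiwi, 31 in siMi-2, 57 in the library labelled siRpd3 and 71 in siGFP. Receptors at 0 numbered 4 in sipiwi, 5 in siMi-2, 1 in the library labelled siRpd3 and 5 in siGFP. The order of levels, which can be compared between genes since FPKM is per length, was 5-HT1B, 5-HT2A and mAChR-A in sipiwi, with overlapping intervals, and 5-HT1B, 5-HT2A and 5-HT1A in siGFP, where the intervals of 5-HT1B and 5-HT2A overlapped. Both siMi-2 and the library labelled siRpd3 had 5-HT2A clear of the next receptor, which was 5-HT1A at 0.121 FPKM in siMi-2 and mAChR-A at 0.159 FPKM in the library labelled siRpd3.

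Other receptors for amines and muscarinic ligands, 14 genes of a list that also holds the adenosine receptor AdoR, gave counts of 1 higher in siMi-2, 5 in the library labelled siRpd3 and 1 in sipiwi, with none lower. The counts of this and the following lists stand beside the background shares given above, and no list is called different from all genes. That background counts only genes above 0 in any library. Some lists also hold genes at 0 throughout, such as Dop1R2 and TyrR here and AkhR among the peptide receptors. AdoR had 2 reads in sipiwi, 126 in siMi-2, 179 in the library labelled siRpd3 and 4 in siGFP, a log2 ratio of 3.06 in siMi-2. Oct-TyrR, a receptor for octopamine and tyramine, had 4 reads in sipiwi, 12 in siMi-2, 97 in the library labelled siRpd3 and 2 in siGFP. The octopamine receptor Octbeta1R was the lowest in siMi-2, with 20 reads in sipiwi, 3 in siMi-2, 2 in the library labelled siRpd3 and 13 in siGFP.

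Enzymes and transporters of amines and acetylcholine, 20 genes, held the 2 largest siMi-2 ratios among the 5 signalling lists on the FPKM + 0.1 scale, though not in reads per mapped read, where Lgr4 of the peptide receptors stood at 51.3 against 2 siGFP reads (8.80 to 2065), b at 43.1 (28.9 to 67.2), AdoR at 32.0 against 4 siGFP reads (8.5 to 269.9) and Ddc at 21.4 (16.7 to 27.9). In siMi-2, 7 of the 20 were higher and none lower, in the library labelled siRpd3 9 were higher and none lower, and in sipiwi none was higher and 1 lower. b (black), the aspartate decarboxylase that makes beta-alanine, stood at 0.696 FPKM in sipiwi, 27.9 in siMi-2, 0.904 in the library labelled siRpd3 and 0.646 in siGFP, a log2 ratio of 5.23 in siMi-2. Ddc, the decarboxylase that makes dopamine and serotonin, stood at 0.874 FPKM in sipiwi, 34.5 in siMi-2, 7.49 in the library labelled siRpd3 and 1.57 in siGFP, with log2 ratios of 4.37 in siMi-2, 2.18 in the library labelled siRpd3 and -0.78 in sipiwi. Ddc was thus high in the same libraries as 5-HT2A, while b was high in siMi-2 only among these 4 libraries. The dopamine transporter DAT had 14 reads in sipiwi, 2 in siMi-2, 10 in the library labelled siRpd3 and 8 in siGFP. Chosen after their values were seen, ple, the tyrosine hydroxylase that starts dopamine synthesis, had 4 reads in sipiwi, 64 in siMi-2, 1238 in the library labelled siRpd3 and 39 in siGFP, and Trhn, a tryptophan hydroxylase of serotonin synthesis, had at most 6 reads in any library.

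**Figure D4:**
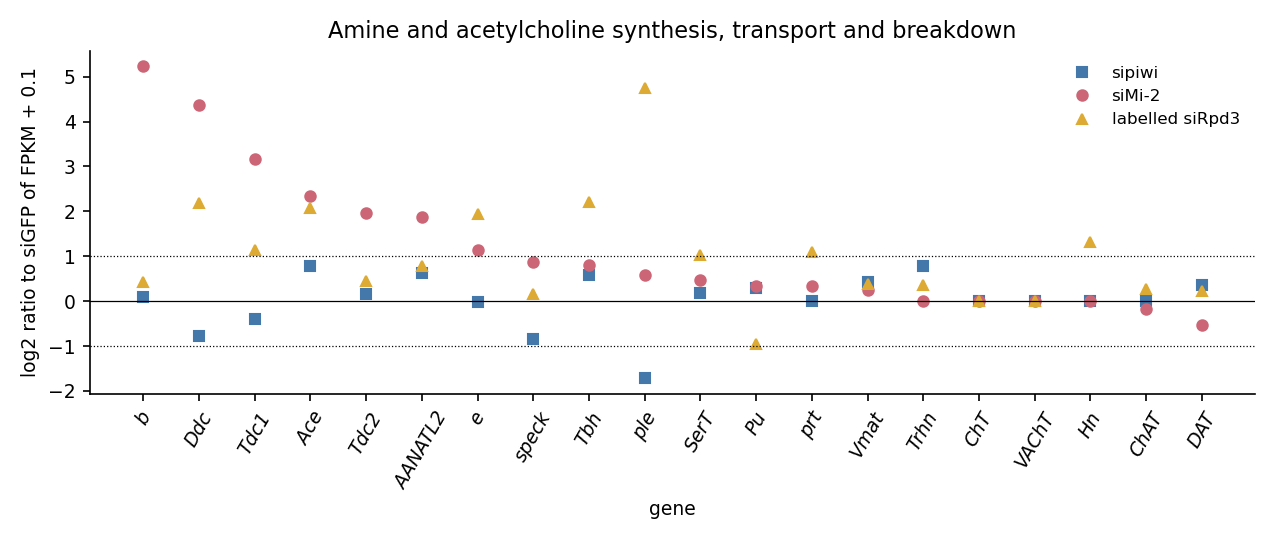
Log2 ratio to siGFP on FPKM + 0.1 of the 20 genes of amine and acetylcholine synthesis, transport and breakdown, in sipiwi, siMi-2 and the library labelled siRpd3, 1 library each, with no error drawn. b and Ddc reach 5.23 and 4.37 in siMi-2, and ple reaches 4.75 in the library labelled siRpd3.

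Of 32 genes for G proteins and second messenger enzymes, which act below these receptors, 5 were higher and 2 lower in sipiwi, 10 higher and 2 lower in siMi-2, and 19 higher and none lower in the library labelled siRpd3. Pkc53E, a protein kinase C, stood at 0.224 FPKM in sipiwi, 3.09 in siMi-2, 0.302 in the library labelled siRpd3 and 0.210 in siGFP. The adenylyl cyclase rut had 98 reads in sipiwi, 232 in siMi-2, 601 in the library labelled siRpd3 and 27 in siGFP. Gbeta5 was the lowest in siMi-2, with a log2 ratio of -1.45 at 1.58 FPKM there, against 4.48 FPKM in siGFP.

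Other receptor families had members past the threshold in both directions. Of 21 ionotropic transmitter receptors, 2 were higher in siMi-2, 6 in the library labelled siRpd3 and 3 in sipiwi, while 2 were lower in siMi-2, 1 in the library labelled siRpd3 and none in sipiwi. nAChRbeta3, a nicotinic acetylcholine receptor subunit, had 105 reads in sipiwi, 501 in siMi-2, 968 in the library labelled siRpd3 and 58 in siGFP. Of 27 peptide receptors, 5 were higher in siMi-2, 6 in the library labelled siRpd3 and 3 in sipiwi, while none was lower in siMi-2, 2 in the library labelled siRpd3 and 1 in sipiwi. Proc-R, the receptor of proctolin, was at 0.554 FPKM in sipiwi, 8.72 in siMi-2, 0.386 in the library labelled siRpd3 and 0.637 in siGFP, which makes it, like b and Pkc53E, a gene past 2-fold in siMi-2 alone among these comparisons.

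Of 13 neuron markers, 2 were higher in siMi-2, 4 in the library labelled siRpd3 and none in sipiwi, where 1 was lower. The background of all genes was 17.9% higher for siMi-2, with 37.1% for the library labelled siRpd3. That background counts only genes above 0 in any library, whereas the 13 include VGlut, which had 0 reads throughout. No difference from it is read for these few markers. Their summed level was 2.10 FPKM in sipiwi, 4.60 in siMi-2, 7.75 in the library labelled siRpd3 and 2.36 in siGFP. The neuronal RNA-binding protein gene elav had 171 reads in sipiwi, 300 in siMi-2, 450 in the library labelled siRpd3 and 171 in siGFP, and its relative Rbp9 had 34 in sipiwi, 56 in siMi-2, 237 in the library labelled siRpd3 and 23 in siGFP. The microtubule protein futsch had 58 reads in sipiwi, 1041 in siMi-2, 906 in the library labelled siRpd3 and 460 in siGFP. Syt1, a synaptic vesicle calcium sensor, had 4 reads in sipiwi, 36 in siMi-2, 26 in the library labelled siRpd3 and 0 in siGFP. These 4 genes were the ones past 2-fold in the library labelled siRpd3, and Syt1 and futsch those in siMi-2. Syn had 79 to 115 reads over the 4 libraries, cac 62 to 96 and nSyb 4 to 21. The remaining 6 markers were at or near 0: VGlut had 0 reads in every library, Gad1 and fne had 6 in the library labelled siRpd3 and 0 in the others, brp had at most 8 reads, para at most 9 and onecut at most 2. Of 5 glia markers, 2 were higher in siMi-2, 3 in the library labelled siRpd3 and none in sipiwi, where 1 was lower, and their summed level was 44.6 FPKM in sipiwi, 271 in siMi-2, 139 in the library labelled siRpd3 and 85.7 in siGFP. moody stood at 0.607 FPKM in sipiwi, 5.95 in siMi-2, 13.7 in the library labelled siRpd3 and 1.01 in siGFP, and wrapper at 19.7 in sipiwi, 241 in siMi-2, 79.2 in the library labelled siRpd3 and 70.7 in siGFP. repo, another of the 5 glia markers, had 6 reads in sipiwi, 2 in siMi-2, 14 in the library labelled siRpd3 and 2 in siGFP. The part of these markers in the levels of 5-HT2A was not tested, and in bulk RNA more cells of a type and more RNA per cell cannot be told apart.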

How the data were processed

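Poly(A) RNA of OSCs was sequenced in 4 libraries, 1 per condition, grouped by their labels. The authors mapped reads with bowtie2 (Bowtie2 2.2.4 in the submitters' processing notes) to dm6 and to a transcriptome, and deposited FPKM values per transcript. The TE table was not used here. From the steps of low FPKM values, the length of each transcript and its whole reads were recovered, with 97.5% to 97.7% of values of intronless genes whole to within 0.02, and 98.9% of rows matched to RefSeq accessions. Depth was 32638850 to 38060154 mapped reads. Because read numbers were mostly even, intervals and floors count read pairs (3 pairs, 6 reads), where the planned floor was 3 reads.

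Transcripts were summed per gene and compared with siGFP as log2(FPKM + 0.1), and a gene counts as higher past 2-fold and as lower under 0.5-fold. With 1 library per condition, no test was run. Intervals are exact at 95%, Poisson for levels and Clopper-Pearson for ratios. The receptors and lists were chosen with earlier results of these data known. All 9 receptors were named, the 2 highest and the lowest gene of each list in siMi-2 among those with at least 10 reads in 1 library, the 5 genes nearest to 5-HT2A, and the neighbours of 5-HT2A, 5-HT2B, 5-HT7, Dop1R1, Dop2R and Oamb (by name where past 2-fold or next to 5-HT2A). Slik, bs, CG13578, CG31008, ple, Trhn, tj, nanos, osk and the other cell type markers outside this choice were named after their values were seen. Gene names and coordinates came from Ensembl and RefSeq annotation. The recovery and calls were tested on simulated data. Scripts used matplotlib 3.10.9, scipy 1.17.1, pandas 2.3.3 and numpy 2.4.6 under Python 3.11.15. Receptor proteins and promoters were not analysed here.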

Additional observations from a re-analysis of the deposited data

How the results depend on the processing

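Of 72 counts of receptors recomputed under alternatives, 38 stayed within 1.5 times and 34 moved. Of 210 log2 ratios, of single receptors and of the receptor median, 152 were classed as the same, 57 as moved and 1 as reversed. The 1.5 times does not apply to them. Ratios classed as the same include mAChR-A in sipiwi, at 1.24 in the main setting and 2.69 with 0.01 FPKM added. With a pseudocount of 0.01 FPKM, sipiwi had 2 receptors higher and 1 lower, siMi-2 3 higher and 2 lower, and the library labelled siRpd3 6 higher and 2 lower. With 1 FPKM, 0 were higher in sipiwi, 0 lower in siMi-2, and 0 higher and 0 lower in the library labelled siRpd3. With reads per mapped read and no length, sipiwi had 2 higher and 1 lower, siMi-2 2 higher and 2 lower, and the library labelled siRpd3 5 higher and 2 lower. In that library, 1 was higher scaled to the median gene and 5 scaled to RpL32. Relative to the 200 genes nearest in length, 0 were higher and 2 lower in sipiwi, and 0 and 5 in the library labelled siRpd3, where the ratio of mAChR-A reversed to -0.71. With the most highly expressed transcript, 0 were higher in sipiwi and 1 in the library labelled siRpd3. A minimum mean of 0.1 FPKM gave the same 0 and 1 on 2 genes. A minimum of 1 FPKM or a 4-fold threshold gave 0 higher in sipiwi, 0 lower in siMi-2, and 1 higher and 0 lower in the library labelled siRpd3. The fewer genes left explain the counts under a minimum, and the cause of the others was not tested. 5-HT2A stayed higher in siMi-2 under every alternative run, at 2.40 with 1 FPKM. The group was selected on this siMi-2 level, so its staying higher is a description and lends no support. In the library labelled siRpd3 its ratio was 0.94 with 1 FPKM and 0.64 relative to length. Leaving out genes at or under 6 reads in every library was chosen after seeing the data. Depth limits the receptors other than 5-HT2A, which had at most 57 reads. No paired analysis was possible because there was 1 library per condition.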

Other observations

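Genes of germ cells, which OSCs lack, differed among themselves. Of 8 germline markers, 2 were higher in siMi-2, 3 in the library labelled siRpd3 and 3 in sipiwi, with none lower. The shares of all genes higher were 17.9% in siMi-2, 37.1% in the library labelled siRpd3 and 11.4% in sipiwi. The helicase vas had 26 reads in sipiwi, 219 in siMi-2, 32 in the library labelled siRpd3 and 2 in siGFP, and the piRNA factor aub had 48 reads in sipiwi, 821 in siMi-2, 182 in the library labelled siRpd3 and 34 in siGFP. These 2 were thus highest in siMi-2, while nanos, ovo and osk had log2 ratios of -0.24, -0.26 and 0 there. AGO3, bam and CycB3 had 0.68, 0.52 and 0.62 in siMi-2, short of 2-fold. In siGFP, bam already stood at 2.24 FPKM and CycB3 at 7.30 FPKM.

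In the peptide and ionotropic receptor lists, Lgr4 and Grd were highest in sipiwi, unlike 5-HT2A. Lgr4, a receptor with leucine-rich repeats, had 1104 reads in sipiwi, 101 in siMi-2, 404 in the library labelled siRpd3 and 2 in siGFP. Grd, a receptor subunit related to GABA receptors, had 1168 reads in sipiwi, 89 in siMi-2, 104 in the library labelled siRpd3 and 17 in siGFP. The nicotinic subunit nAChRbeta2 and the tachykinin receptor TkR86C were the lowest of these lists in siMi-2, with log2 ratios of -1.54 and -0.91.

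Of the remaining marker lists, 4 of 8 ovarian somatic markers were higher in the library labelled siRpd3, 2 in siMi-2 and 1 in sipiwi, with none lower. The shares of all genes higher were 37.1%, 17.9% and 11.4% in the same order. The summed level of the 8 markers in the library labelled siRpd3 was 538.0 FPKM, against 391.3 FPKM in siGFP. Some markers fell there, short of 2-fold: bond stood at 64.9 FPKM, against 126 in siGFP, and fs(1)Yb at 38.8, against 53.3. Of 5 haemocyte markers, 1 was higher in siMi-2, 2 in the library labelled siRpd3 and 2 in sipiwi, with none lower. The haemocyte factor srp had 100 reads in sipiwi, 274 in siMi-2, 1355 in the library labelled siRpd3 and 16 in siGFP. Pxn had 1831 reads in sipiwi, 247 in siMi-2, 729 in the library labelled siRpd3 and 235 in siGFP. Hml, NimC1 and eater had at most 2 reads in any library. Of 6 muscle markers, 2 were higher and 1 lower in siMi-2, with 1 higher in the library labelled siRpd3 and 1 in sipiwi. The muscle myosin Mhc had 672 reads in sipiwi, 1210 in siMi-2, 552 in the library labelled siRpd3 and 272 in siGFP. The other muscle markers, Act88F, Tm2, TpnC73F, up and wupA, had at most 8 reads in any library. In siMi-2, Act88F, Tm2 and up had 0 reads, against 6, 2 and 2 in siGFP. Of 5 fat body markers, 3 were higher in the library labelled siRpd3, on a summed level of 0.764 FPKM, against 0.0124 FPKM in siGFP. None was higher in siMi-2 or sipiwi. In the library labelled siRpd3, apolpp had 82 reads, Lsp2 29 and Yp1 8, against 5, 0 and 0 in siGFP. Fbp1 and Lsp1alpha had 0 reads in every library.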
